A study of Sus scrofa with 16 samples.

Results

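KRT8, KRT18 and KRT19 are the keratins of simple epithelia, and on this pig array they are 3 genes with 1 probe each among 1015 probes. The rule that picks them is a match of the gene symbol in the probe annotation and uses no measured value. They were followed through 4 stages of the pre-attachment pig conceptus (the embryo with its extraembryonic membranes), with 4 arrays for each. Small spherical conceptuses were 1 to 5 mm long and large spherical ones 6 to 11 mm. Tubular conceptuses measured 13 to 45 mm, and filamentous ones exceeded 100 mm. Radioactive target made from amplified RNA was read on a membrane of spotted cDNA products. Stage is the sole factor the labels give. They name no breed, treatment, dam or litter, so p-values measure the spread between these samples, which may be technical.

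Keratin filaments are built from obligate pairs of 1 type II and 1 type I chain. KRT8 is the type II chain of simple epithelia, and KRT18 and KRT19 are type I chains that pair with it. In mouse, Krt8 and Krt18 are the first keratins of the embryo and mark trophectoderm, the outer epithelium from which trophoblast derives, and they are also made by extraembryonic endoderm. Unpaired keratin chains are unstable, so partner transcripts are of interest side by side. In the RefSeq gene table of the pig assembly (Sscrofa11.1), KRT8 and KRT18 are next to each other among protein-coding genes. KRT19 lies on another chromosome beside KRT15, another type I keratin.

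Every array gave all 1015 probes, with medians of 62.8 to 71.4 (intensity, linear). The number of arrays limits the precision. On the first principal component (23.2% of the variance), the 4 arrays numbered 1, 1 per stage, had the 4 lowest scores (-16.3 to -8.17, against -4.25 to 9.40 on the other 12). Leading results are therefore repeated on the 12 arrays numbered 2 to 4. Intensities of different probes cannot be ranked as transcript levels, because spots differ in cDNA length and amount. In whole conceptuses a change in the share of epithelial cells and a change in keratin RNA per cell cannot be told apart.

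None of the 3 keratins differed between stages past the threshold. Across 18 contrasts (3 genes, 6 pairs of stages) 0 had an adjusted p below 0.05 in limma, with values of 0.274 to 1.00, and 1 had an unadjusted p below 0.05. Few probes of any kind passed: 0.394% in the F test, 0.394% in large and in tubular against small spherical, 0.888% in filamentous against small spherical and 0% in the other 3 pairs. At these shares 0 calls in a few genes, here and in the gene lists further on, says nothing particular about them. KRT18 stayed within the narrowest range. KRT19 had its highest mean in filamentous and its lowest in small spherical conceptuses, a 1.47-fold difference that did not pass. KRT8 had nearly equal means in the 3 later stages (23.9 to 24.1) and a lower one in small spherical conceptuses (19.5). Pairs of stages in which the arrays did not overlap are read against the share of all probes that did the same. With the later stage higher, that share was 3.85% for large against small spherical, 4.54% for tubular and 4.54% for filamentous against small spherical, 1.18% for tubular against large spherical, 2.86% for filamentous against large spherical and 1.97% for filamentous against tubular conceptuses. With the later stage lower, it was 1.18%, 2.76%, 2.66%, 1.78%, 0.986% and 0.986% for the same pairs in that order. Among the keratins 1 of 18 contrasts did not overlap, in KRT8.

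**Figure D1:**
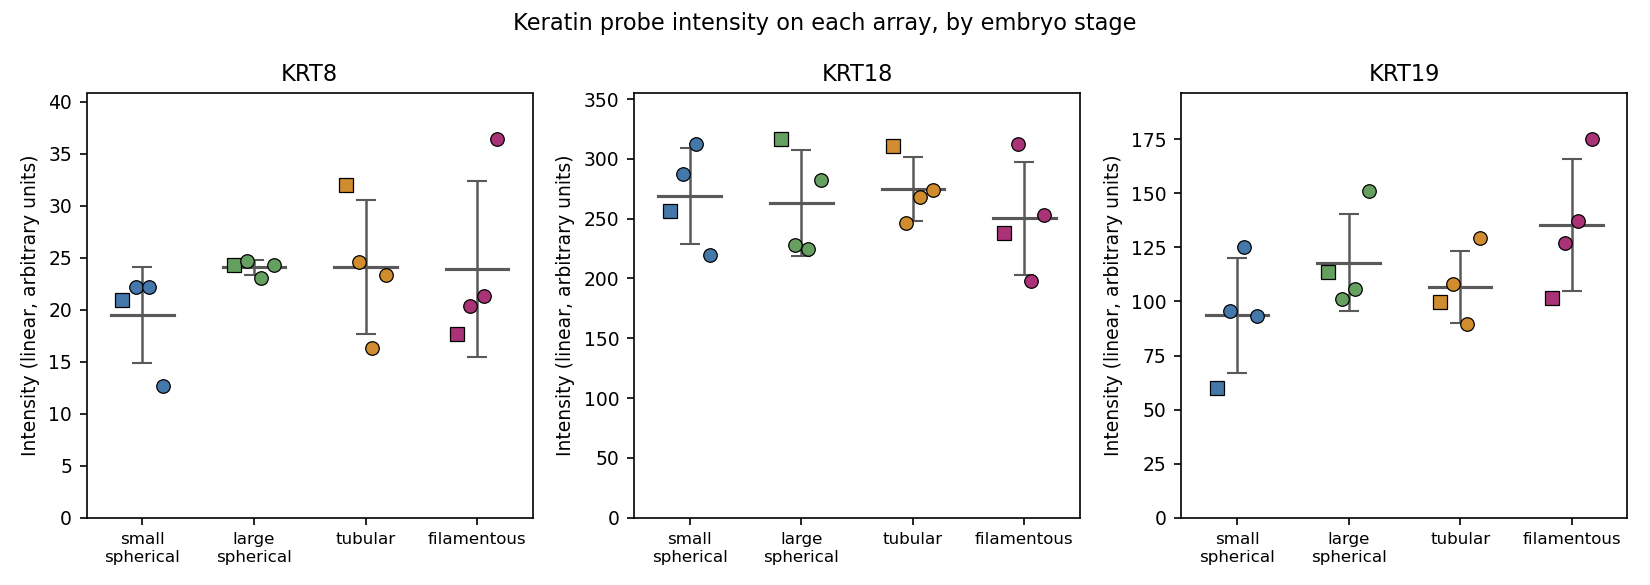
Intensity (linear, arbitrary units) of the KRT8, KRT18 and KRT19 probes on each of the 16 arrays, by stage from small spherical to filamentous. Symbols are arrays (squares are arrays numbered 1), wide bars are means and whiskers are SD (n = 4). The stages overlap for KRT18 throughout, and KRT19 has its highest array (175) and its highest mean (135) in filamentous conceptuses.

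KRT8, the type II partner of both other chains, was the dim probe of the group. It read 20.9, 22.2, 22.2 and 12.6 in small spherical conceptuses (replicates 1 to 4). In large spherical conceptuses it read 24.3, 24.7, 23.0 and 24.3. The large spherical arrays lay close together, and replicate 4 stood alone at the low end of the small spherical arrays. Tubular conceptuses gave 32.0, 24.6, 16.4 and 23.3, and filamentous conceptuses gave 17.6, 20.3, 21.4 and 36.4. The tubular and filamentous stages therefore each held arrays both above and below the whole large spherical range.

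Means for KRT8 were 19.5 ± 4.60 in small spherical conceptuses, 24.1 ± 0.714 in large spherical ones, 24.1 ± 6.42 in tubular ones and 23.9 ± 8.47 in filamentous ones (SD, n = 4). The coefficient of variation was 2.97% in large spherical conceptuses, against 23.6% to 35.4% in the other stages; this difference in spread was not tested. The F test over stages did not pass (adjusted p = 0.924, limma, n = 16 arrays). In the order of means, the later 3 stages did not differ beyond their spread, with log2 differences between them of -0.07 to -0.03.

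All 4 large spherical arrays read above all 4 small spherical arrays for KRT8. The same separation was seen in 3.85% of all probes. The gap between the lowest large spherical array (23.0) and the highest small spherical array (22.2) was 0.852 units, and values near KRT8 on the 16 arrays are spaced by 0.625 to 2.18 units, so the separation is about 1 step of the deposited scale. The log2 difference was 0.34 ± 0.25 (SE, adjusted p = 0.801, limma), and its 95% interval ran from a fold of 0.872 to 1.84. Here 4 of 1014 probes passed (0.394%), and KRT8 was not among them. Without small spherical replicate 4 the difference was 0.15, and with an offset of 10 added before log2 it was 0.22. Arrays with the same number deviated together in this contrast, and with the number as a block KRT8 still did not pass (adjusted p = 0.688).

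KRT18, the usual type I partner of KRT8, was the bright probe, above 97.4% of probes by mean log2 intensity. It read 257, 288, 312 and 219.8 in small spherical conceptuses and 317, 228, 225 and 282 in large spherical ones. Tubular conceptuses gave 311, 247, 268 and 274, and filamentous ones 238, 312, 198 and 253. No stage stood apart: every one of the 6 pairs of stages overlapped, and the whole series spanned 1.60-fold from the lowest array (198) to the highest (317). The probe read 28.3% to 75.2% of the array maximum, so it was at the maximum of no array. Whether the response flattens at this brightness was not tested.

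By stage KRT18 averaged 269 ± 39.9 in small spherical conceptuses, 263 ± 44.5 in large spherical ones, 275 ± 26.6 in tubular ones and 250.4 ± 47.4 in filamentous ones (SD, n = 4). In order of means the stages ran tubular, small spherical, large spherical and filamentous, and no neighbours in that order differed beyond their spread. The log2 differences lay between -0.15 and 0.07, and all 6 of the 95% intervals lay within -0.53 and 0.45. The widest difference, filamentous against tubular, corresponded to a fold of 0.902 with an interval of 0.694 to 1.17. On the log2 scale it was -0.15, and it was -0.042 without filamentous replicate 3 and -0.26 without filamentous replicate 2. A change of up to about that interval is not excluded by 4 arrays a stage. The F test gave an adjusted p of 1.00 (limma). The spread of KRT18 within stages was small, with a residual SD of 0.22 on the log2 scale, and 13.4% of probes had a smaller one. The median residual SD over all probes was 0.38, and KRT8 (0.36) and KRT19 (0.32) were near it.

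KRT19, the type I chain that lacks most of the tail domain and pairs with KRT8, read 60.2, 95.7, 125 and 93.3 in small spherical conceptuses. It read 114, 101, 106 and 151 in large spherical and 99.96, 108, 89.8 and 129 in tubular conceptuses. In filamentous conceptuses it read 101, 127, 137 and 175. The ranges of all 4 stages overlapped. The filamentous arrays reached highest, and small spherical replicate 1 lay below all others.

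KRT19 averaged 93.6 ± 26.6 in small spherical conceptuses, 118 ± 22.5 in large spherical ones, 107 ± 16.8 in tubular ones and 135 ± 30.6 in filamentous ones (SD, n = 4). In order of means the stages ran filamentous, large spherical, tubular and small spherical. No neighbours in that order differed beyond their spread. The F test did not pass (adjusted p = 0.700, limma), and KRT19 ranked 218 of 1014 probes by its p.

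Filamentous against small spherical conceptuses was the 1 keratin contrast whose 95% interval lay wholly above 0. KRT19 read higher on 3 of 4 filamentous arrays than on every small spherical array, and in 15 of 16 array pairs. The log2 difference was 0.55 ± 0.23 (SE), a 1.47-fold difference with an interval of 1.04 to 2.06, and it did not pass (adjusted p = 0.274, limma). The unadjusted p was 0.0298 in limma, and 148 of 1014 probes (14.6%) had one below 0.05 in this contrast, of which 9 passed after adjustment (0.888%). Over 23 alternative settings the difference was between 0.35 and 0.71, with adjusted p of 0.144 to 0.546 (limma). Many of these settings, such as leaving out a large spherical or tubular array, cannot change this KRT19 difference, so their number is no measure of its stability. Without the arrays numbered 1 it was 0.48 (adjusted p = 0.379, limma), and it was 0.35 when small spherical replicate 1 was left out.

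**Figure D2:**
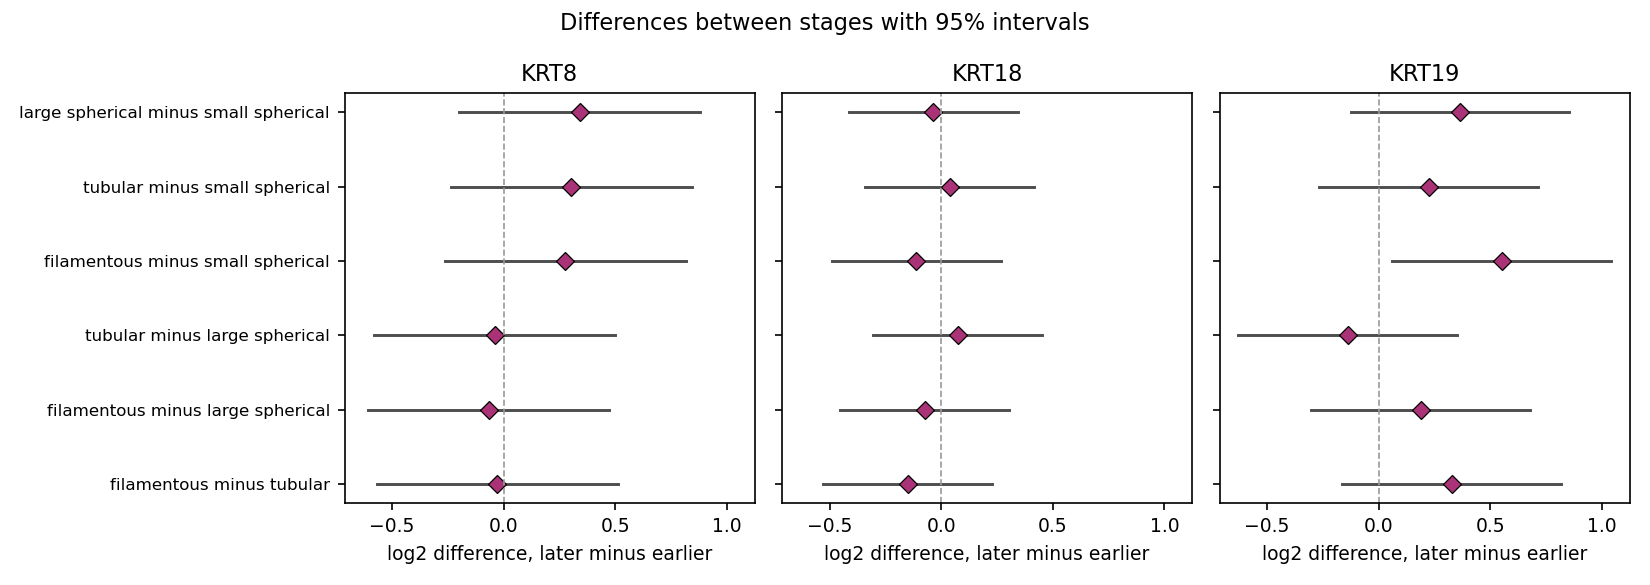
Log2 difference (later minus earlier stage) of KRT8, KRT18 and KRT19 for the 6 pairs of stages. Diamonds are estimates from the limma fit to 16 arrays and lines are 95% intervals. The interval of KRT19 in filamentous minus small spherical conceptuses (0.06 to 1.04) is the one that does not include 0, before adjustment for the number of probes.

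The other KRT19 contrasts were smaller. KRT19 differed by 0.36 ± 0.23 between large and small spherical conceptuses (SE, adjusted p = 0.729, limma) and by 0.33 ± 0.23 between filamentous and tubular ones (adjusted p = 0.994). For these steps 0.394% and 0% of all probes passed. By limma 0 probes passed in filamentous against tubular, with 34 at an unadjusted p below 0.05. Single arrays mattered here too. The first difference was 0.18 on the 12 arrays numbered 2 to 4, 0.17 without small spherical replicate 1 and 0.24 without large spherical replicate 4, and the second was 0.19 without filamentous replicate 4.

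Partner keratins were next compared within each array, because a ratio of probes on 1 array cancels factors that scale the whole array. An amount added to every probe, such as background, does not cancel, and it would weigh most on the dim KRT8 probe. Only the change of a ratio between stages can be read, since its size depends on the spots. The ratio of KRT19 to KRT18 asks whether the balance of the type I chains shifted. The ratios of KRT8 to KRT18 and to KRT19 ask whether the type II chain kept step with each partner. Each pair of stages was compared by a two-sided exact permutation test (4 arrays against 4, smallest possible p = 0.0286). Adjustment was over 18 tests, which overlap in arrays and genes. With that smallest p, a ratio fully separated in 1 comparison alone could not pass the adjustment. A ratio that did not pass is therefore not shown to be unchanged.

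Of the 18 ratio comparisons, KRT19 over KRT18 in filamentous against small spherical conceptuses had the largest difference, and it did not pass. It read 0.426, 0.408, 0.694 and 0.691 on the filamentous arrays, against 0.235, 0.333, 0.401 and 0.425 on the small spherical arrays. Filamentous replicates 3 and 4 lay above every other array of the series, replicate 1 (0.426) was barely above the highest small spherical value (0.425), replicate 2 lay below it, and 15 of 16 array pairs ran in the same direction. The log2 ratio differed by 0.66 ± 0.24 (SE), a 1.58-fold shift with a 95% interval of 1.10 to 2.27 from the pooled spread (exact permutation p = 0.0571, adjusted p = 0.514). On the arrays numbered 2 to 4 the difference was 0.60, and with arrays paired by number it was positive in 4 of 4 pairs (exact sign-flip p = 0.125, the smallest that 4 pairs allow). It was 0.48 to 0.79 when any 1 array of these stages was left out.

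In the stages between, the ratio of KRT19 to KRT18 read 0.359, 0.444, 0.471 and 0.534 in large spherical and 0.322, 0.438, 0.335 and 0.471 in tubular conceptuses. Large spherical exceeded small spherical conceptuses by 0.40 ± 0.24 (SE) on the log2 scale (exact permutation p = 0.143, adjusted p = 0.514), and by 0.22 without small spherical replicate 1. Tubular conceptuses lay below large spherical ones by number in 4 of 4 pairs, with a log2 difference of -0.21 ± 0.24 (exact permutation p = 0.229, adjusted p = 0.514). It was -0.13 without tubular replicate 1 or large spherical replicate 4. The order of stage means was thus filamentous, large spherical, tubular and small spherical, as for KRT19 itself, and no neighbours differed beyond their spread.

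**Figure D3:**
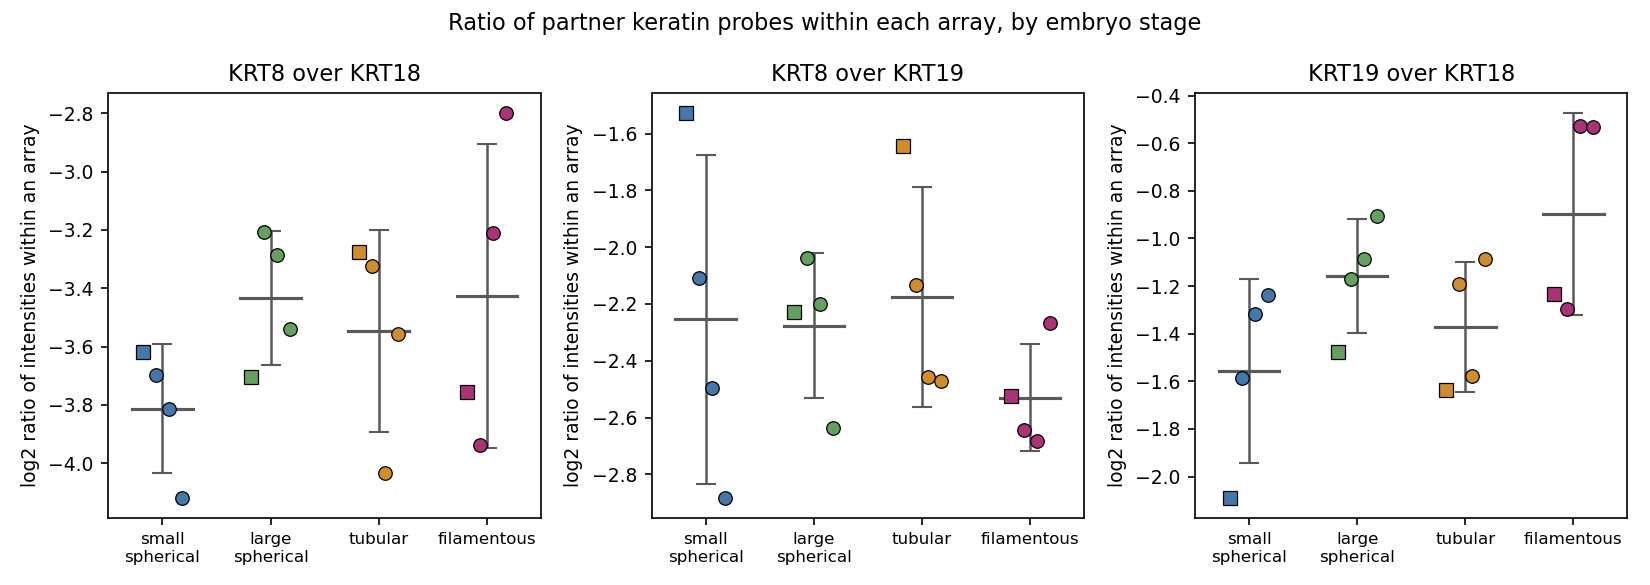
Log2 ratio of intensities within each array for KRT8 over KRT18, KRT8 over KRT19 and KRT19 over KRT18, by stage from small spherical to filamentous. Symbols are arrays (squares are arrays numbered 1), wide bars are means and whiskers are SD (n = 4). Filamentous replicates 3 and 4 (log2 ratios of -0.53 and -0.53) lie above all other arrays for KRT19 over KRT18.

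KRT8 relative to KRT18 had its lowest mean log2 ratio in small spherical conceptuses (-3.81 ± 0.22), while large spherical ones averaged -3.43 ± 0.23, tubular ones -3.55 ± 0.35 and filamentous ones -3.43 ± 0.52 (SD, n = 4). Large against small spherical conceptuses differed by 0.38 ± 0.25 (SE), with 3 of 4 large spherical arrays above every small spherical one (exact permutation p = 0.0857, adjusted p = 0.514). The 95% interval of this shift, as a fold, was 0.893 to 1.89. Filamentous against small spherical conceptuses had the largest difference of this ratio, 0.39 ± 0.25 (SE, exact permutation p = 0.257, adjusted p = 0.514). In filamentous conceptuses the linear ratio was 0.0740, 0.0652, 0.108 and 0.144. Replicate 4 held the highest value of all 16 arrays, and replicates 1 and 2 lay among the small spherical values (0.0575 to 0.0814).

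KRT8 relative to KRT19 averaged a log2 ratio of -2.25 ± 0.58 in small spherical conceptuses, -2.28 ± 0.25 in large spherical ones, -2.18 ± 0.39 in tubular ones and -2.53 ± 0.19 in filamentous ones (SD, n = 4). The 2 spherical stages were -0.02 ± 0.27 apart (SE). That is a fold of 0.985 with a 95% interval of 0.654 to 1.48, so shifts of that size in either direction cannot be told from none. Filamentous conceptuses were lowest, by -0.35 ± 0.27 against tubular ones (exact permutation p = 0.143, adjusted p = 0.514). Without tubular replicate 1 this difference was -0.18. Over the 16 arrays the 3 ratios spanned 2.50-fold for KRT8 over KRT18, 2.56-fold for KRT8 over KRT19 and 2.96-fold for KRT19 over KRT18. Each span exceeded that of KRT18 itself (1.60-fold) and was close to those of KRT8 (2.88-fold) and KRT19 (2.91-fold).

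Across the 16 arrays no pair of keratins had a correlation that passed. For KRT8 and KRT18, Pearson's r was 0.294 (permutation p = 0.269) and Spearman's rho 0.176 (permutation p = 0.511). For KRT8 and KRT19, r was 0.456 (permutation p = 0.0760, adjusted p = 0.228) and rho 0.403 (permutation p = 0.122). For KRT19 and KRT18, r was 0.0780 (permutation p = 0.777) and rho 0.121 (permutation p = 0.655). Adjusted over the 3 pairs, the values of p for r were 0.228 to 0.777 and those for rho 0.365 to 0.655. Of the other 1011 probes, 19.5% had a higher r with KRT8 than KRT18 had, and 9.10% a higher one than KRT19 had.

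The r of KRT8 and KRT19 was lower when a few arrays were left out. Without the 2 arrays farthest from the KRT8 median, small spherical replicate 4 and filamentous replicate 4, it was 0.192. Leaving out the extremes of KRT8 narrows its range and tends to lower a positive r. Whether the pair rests on these 2 arrays in particular was not tested. On the 12 arrays numbered 2 to 4, r was 0.688 (permutation p = 0.0122, adjusted p = 0.0364). There rho was 0.476 (permutation p = 0.122), and r was 0.359 without the same 2 arrays. With stage means subtracted, r was 0.377 for KRT8 and KRT19 (permutation p = 0.150), 0.359 for KRT8 and KRT18 (permutation p = 0.171) and 0.261 for KRT19 and KRT18 (permutation p = 0.326). The permutation mixed arrays across stages and took no account of the subtraction, so these p tend to be too small. After the subtraction, leaving out the 2 farthest arrays gave r = 0.310 for KRT8 and KRT19. Without that subtraction, leaving out the 2 farthest of the 16 arrays gave r = 0.235 for KRT8 and KRT18 and r = 0.139 for KRT19 and KRT18.

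**Figure D4:**
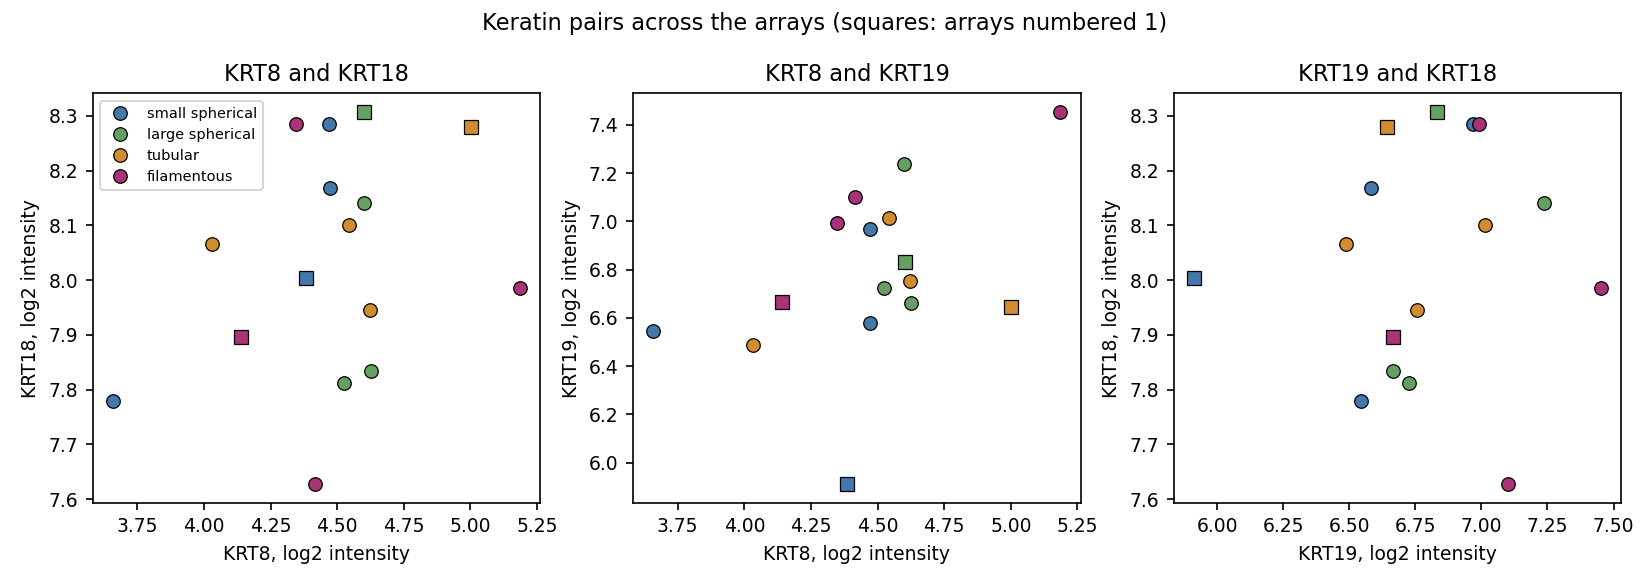
Log2 intensity of one keratin against another over the 16 arrays, coloured by stage (squares are arrays numbered 1). KRT8 and KRT19 (middle, r = 0.456) share filamentous replicate 4 as their highest array, and KRT19 and KRT18 (right, r = 0.0780) show no common order.

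Genes with the most similar pattern were taken as the 5 with the highest Pearson r to each keratin over the 16 arrays, among 634 other named genes, as a description. For KRT8 they were ANXA5, a phospholipid-binding annexin (r = 0.761), CYP19A1, the aromatase that makes oestrogens (0.738), SLC15A2, a peptide transporter (0.684), RPL13A, a ribosomal protein (0.655), and PTGES, a prostaglandin E synthase (0.653). On the 12 arrays numbered 2 to 4, r with KRT8 was 0.909 for ANXA5, 0.676 for CYP19A1, 0.658 for SLC15A2, 0.555 for RPL13A and 0.603 for PTGES. With stage means removed it was 0.819 for ANXA5 and 0.710 for CYP19A1. The genes were picked on these same arrays, so the values are no separate check. How far they rest on small spherical replicate 4 and filamentous replicate 4 was not tested.

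For KRT18 the 5 genes were MCL1, an inhibitor of apoptosis (r = 0.724), FABP3, a fatty acid binding protein (0.691), PAK1IP1 (0.664), RPS13, a ribosomal protein (0.644), and SLC25A3, the mitochondrial phosphate carrier (0.638). With stage means removed MCL1 had an r of 0.788 with KRT18. For KRT19 they were CITED1, a transcriptional coregulator made in trophoblast (r = 0.796), TAGLN2, an actin-binding transgelin (0.757), ELOVL6, a fatty acid elongase (0.743), ESR2, an oestrogen receptor (0.733), and NTAN1, an amidase (0.724). On the 12 arrays numbered 2 to 4 the values were 0.658 for CITED1, 0.560 for TAGLN2 and 0.469 for ELOVL6. The lists for the 3 keratins shared no gene. The arrays share probes, scaling and the numbering effect, so these values describe likeness over these arrays alone.

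The keratins were then set beside other trophectoderm genes from a list drawn up with earlier results of these data known, of which 10 of 25 were measured. STAR, the cholesterol carrier of steroid synthesis, passed the F test (adjusted p = 0.000617, limma), and the other 9 did not, where 4 of 1014 probes passed (0.394%). Against small spherical conceptuses STAR rose in large spherical (log2 1.72), tubular (log2 2.02) and filamentous conceptuses (log2 1.93), with adjusted p of 0.00207, 0.000290 and 0.000499 in limma. PLAC1, a trophoblast gene, rose in tubular (log2 1.36, adjusted p = 0.0460, limma) and filamentous conceptuses (log2 1.46, adjusted p = 0.0159, limma). By mean log2 intensity, 9 of the 10 genes were higher by number in large than in small spherical conceptuses. On the same scale 8 were higher in filamentous than in small spherical ones. On that scale GCM1 (log2 -0.96, adjusted p = 0.817, limma) and IFNG (log2 -0.30, adjusted p = 0.629, limma) were lower in filamentous than in small spherical conceptuses. GCM1 was a very dim probe, and its linear mean ran the other way. It was 5.48 ± 8.92 in filamentous and 2.70 ± 1.03 in small spherical conceptuses (SD, n = 4), so its direction is not settled. The median log2 difference of the list was 0.86 in large against small spherical conceptuses and 0.41 in filamentous against small spherical ones, where that of all probes was -0.03 and -0.03. The summed intensity of the 10 markers was 624 to 920.4 on the small spherical arrays and 1064 to 1189 on the large spherical ones. It was 1008 to 1256 on the tubular and 853 to 1262 on the filamentous arrays. In those 2 contrasts KRT8 differed by 0.34 and 0.28, KRT18 by -0.04 and -0.11 and KRT19 by 0.36 and 0.55. The difference between the list and the keratins was not tested.

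Among keratin-associated genes 4 of 23 were measured, and 0 passed in any contrast (limma). SFN, a cytoplasmic adaptor of epithelia that is also on the trophectoderm list, read 96.5 ± 40.2 in small spherical conceptuses, 153 ± 24.5 in large spherical ones, 138 ± 17.1 in tubular ones and 139 ± 51.4 in filamentous ones (SD, n = 4, adjusted p = 0.687 in the limma F test). Its r with KRT8 was 0.642. YWHAH, a member of the same adaptor family, ran the other way, with 149 ± 27.3, 132 ± 25.3, 97.2 ± 18.9 and 89.6 ± 10.7 in the same order of stages, and did not pass (adjusted p = 0.149, limma). YWHAQ averaged 110.3 ± 8.22, 128 ± 11.2, 133 ± 23.5 and 129 ± 12.8 from small spherical to filamentous conceptuses.

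Epithelial junction and adhesion genes had 6 of 27 members measured, and 0 passed in any contrast (limma). CDH1, the cadherin that joins epithelial cells, was flat by number, with 89.6 ± 17.2, 90.0 ± 16.3, 87.5 ± 16.4 and 84.3 ± 17.5 from small spherical to filamentous conceptuses. CTNNB1, the catenin bound to it, averaged 278 ± 47.9, 235 ± 36.8, 198 ± 35.4 and 202 ± 16.8 (adjusted p = 0.479, limma F test). PDPN, a membrane mucin-like glycoprotein, averaged 63.2 ± 69.1, 174 ± 22.4, 193 ± 34.7 and 181 ± 46.9 (adjusted p = 0.142, limma F test). GJA1, a gap junction protein, averaged 37.6 ± 7.18, 27.1 ± 8.09, 28.5 ± 10.2 and 30.3 ± 10.6.

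Of 9 measured actin and tubulin genes out of 37 listed, 0 passed in any contrast (limma), and the median log2 differences were -0.10 to 0.10. TMSB10, a thymosin, averaged 69.1 ± 15.96, 84.1 ± 7.86, 119 ± 29.6 and 116 ± 9.90 from small spherical to filamentous conceptuses (adjusted p = 0.149, limma F test). TAGLN2 averaged 39.0 ± 13.4, 50.2 ± 7.05, 52.7 ± 7.65 and 73.0 ± 11.8 in that order (adjusted p = 0.260, limma F test). TMSB4X, another thymosin, followed (adjusted p = 0.729, limma F test). Among the 676 probes with 1 gene symbol no other keratin symbol appeared, and of the other intermediate filament genes listed VIM alone did. Probes with several symbols or none were not searched. VIM, the filament protein of mesenchyme, averaged 35.8 ± 5.51, 28.9 ± 7.30, 40.4 ± 14.0 and 61.2 ± 21.4 from small spherical to filamentous conceptuses (SD, n = 4, adjusted p = 0.260, limma F test). Its filamentous range, 40.6 to 86.0, overlapped the tubular one (27.5 to 59.5) and met the small spherical one (27.9 to 40.5), from which it was separated by 0.027 units.

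Markers of other cell types were read beside the keratins, since KRT8, KRT18 and KRT19 can come from several epithelia. Of 22 hypoblast and yolk sac genes 11 were measured, of 16 mesoderm and mesenchyme genes 5, of 17 maternal endometrium and blood genes 3, and of 9 epiblast genes 0. By limma 0 of them passed in any contrast. The summed hypoblast intensity was 921 to 1023 on filamentous and 797 to 951 on small spherical arrays, while the median log2 difference of the list was -0.07, with 5 of 11 genes positive (-0.03 over all probes). APOA1, an apolipoprotein, averaged 172 ± 44.5 in filamentous and 120 ± 43.3 in small spherical conceptuses. TF, the iron carrier transferrin, averaged 11.5 ± 5.47 in filamentous and 26.6 ± 6.31 in small spherical conceptuses. COL4A2, a basement membrane collagen chain, averaged 38.5 ± 9.98 in filamentous and 35.5 ± 17.9 in small spherical conceptuses. These members thus ran in different directions by number, and none passed. The summed mesoderm intensity was 178 to 266 on filamentous and 168 to 223 on small spherical arrays, with a median log2 difference of 0.15 and 3 of 5 genes positive. Besides VIM, KDR, a receptor of vascular growth factors, averaged 28.2 ± 7.91 in filamentous and 18.3 ± 6.96 in small spherical conceptuses. T, the brachyury gene of early mesoderm, averaged 10.8 ± 2.81 in filamentous and 11.9 ± 1.02 in small spherical conceptuses. The maternal markers CD3E, ACP5 and PGR summed to 11.3 to 37.7 on filamentous and 25.2 to 35.1 on small spherical arrays. By mean most of this was ACP5 (19.6 in filamentous and 25.7 in small spherical conceptuses). CD3E (2.69 and 2.22) and PGR (4.58 and 4.02) were very dim. No value of any probe is 0 (lowest 0.120), so a reading above 0 does not show that a maternal transcript was present. The part of these cell types in the KRT19 difference was not tested.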

How the data were processed

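The deposited table holds 1 linear intensity per probe and array, for 16 arrays in 4 stages taken from the sample titles. Per the labels, the target carried phosphorus-32 and the array was a cDNA membrane. The authors' scanning, background correction and normalization of these intensities are not given in the sources used. Array medians spanned 0.18 on the log2 scale, so values were transformed to log2 with no offset or further normalization. The 1 probe constant on all arrays was left out, leaving 1014. No 2 arrays were identical, and 0 columns went unused.

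A mean per stage was fitted to 16 arrays with limma 3.58.1 in R 4.3.3, with an F test and 6 contrasts, later minus earlier stage. Tests were two-sided with Benjamini-Hochberg adjustment over 1014 probes and a threshold of 0.05. The fit was tested on simulated data. Within-array log2 ratios were compared by exact permutation, and correlations by 100000 permutations, in Python 3.11.15 with SciPy 1.17.1. Plots used matplotlib 3.10.9.

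Of 1015 probes, 676 carried 1 gene symbol. A gene with several probes was represented by the brightest, and each keratin had 1. Named genes were the keratins, the 5 genes most correlated with each, and, from each list, the 3 or fewer genes of smallest F test p. CDH1, GCM1 and IFNG were added after their values were seen. The members were proposed, and the lists drawn up, with earlier results of these data known, although the symbol rule itself uses no value.

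Arrays with the same number deviated together in large minus small spherical (correlations of 0.219 to 0.495 for the 4 pairs, from the data and not the labels). In the other 5 contrasts at least 1 pair was below 0.1.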

Additional observations from a re-analysis of the deposited data

Results flagged for a closer look

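Within groups of 4 arrays, 3 of the 104 groups examined (2.88%, where chance gives about 1 in 20) had 1 array far from the others by Dixon's criterion. For KRT8, small spherical replicate 4 read 12.6, below the 20.9 to 22.2 of the other 3 arrays. For TAGLN2, small spherical replicate 1 read 19.1, below 44.3 to 47.8 on the others. For PLAC1, small spherical replicate 3 read 18.4, above 9.39 to 10.4 on the others.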

How the results depend on the processing

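No keratin contrast or F test passed in any of 473 alternative values (lowest adjusted p 0.144 by limma), and no partner ratio did in 252 (lowest 0.235). These counts are no measure of stability. Many of the keratin values leave out an array of a stage not compared, which leaves the difference itself unchanged. Many of the ratio values could hardly pass. With arrays paired by number the smallest exact sign-flip p was 0.125, so none of those could. A further setting left out small spherical replicate 3 and filamentous replicate 1, which were picked because their profiles lay toward another stage. That choice depends on the outcome and favours wider stage differences, so its values are listed for completeness and carry no support (0.84 for KRT19 in filamentous minus small spherical, adjusted p = 0.0746 by limma). Leaving out 1 array changed the sign of these small differences. KRT8 then ranged from -0.19 to 0.13 in tubular minus large spherical, -0.29 to 0.062 in filamentous minus large spherical and -0.25 to 0.12 in filamentous minus tubular. KRT18 ranged from -0.13 to 0.039 in large minus small spherical, -0.055 to 0.11 in tubular minus small spherical and -0.19 to 0.033 in filamentous minus large spherical. KRT8 over KRT18 ranged from -0.20 to 0.049 in tubular minus large spherical, -0.20 to 0.18 in filamentous minus large spherical and -0.088 to 0.29 in filamentous minus tubular. KRT8 over KRT19 ranged from -0.23 to 0.22 in large minus small spherical, -0.13 to 0.32 in tubular minus small spherical and -0.077 to 0.20 in tubular minus large spherical.

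Other settings also turned small differences, and the cause was not tested. With quantile normalization KRT8 in filamentous minus tubular was 0.034, KRT8 over KRT18 in filamentous minus large spherical was -0.11, and KRT8 over KRT19 was 0.15 in large minus small spherical and -0.11 in tubular minus large spherical. On the 12 arrays numbered 2 to 4, KRT8 was 0.066 in filamentous minus large spherical and 0.25 in filamentous minus tubular. KRT18 was there -0.041 in tubular minus small spherical and 0.037 in filamentous minus large spherical, and KRT8 over KRT19 was 0.21 in large minus small spherical and -0.062 in tubular minus large spherical. The correlation of KRT8 and KRT19 passed on these arrays alone (r = 0.6885). Without small spherical replicate 3 and filamentous replicate 1, KRT8 was 0.062 in filamentous minus large spherical and 0.10 in filamentous minus tubular. KRT18 was then 0.039 in large minus small spherical, and KRT8 over KRT19 was -0.0018 in tubular minus small spherical. KRT8 is among the dimmest 25% of probes, so leaving those out gave no value for it. Each gene had 1 probe, so the settings on several probes gave none either.

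The counts of probes that passed by limma moved more. The F test count was 2 without the dimmest probes and 17 without both arrays, and 1 to 13 with 1 array left out (1 without small spherical replicate 2, 2 without replicate 4, 13 without replicate 3). For large minus small spherical it was 7 and 36, and 1 to 26 (1 if any of small spherical 2 and 4 and large spherical 2, 3 and 4 was dropped, 26 if small spherical 3 and 11 if filamentous 1 was). For tubular minus small spherical it was 13, 29, and 13 with an offset of 10 before log2, and 3 to 16 (16 if small spherical 3 and 8 if filamentous 1 was dropped). For filamentous minus small spherical it was 31 without both arrays, 2 with only these stages in the fit, and 3 to 28 (28 if small spherical 3, 3 if filamentous 3 and 4 if filamentous 4 was dropped). With replicate block it was 10 for the F test, 11 for tubular and 15 for filamentous minus small spherical. The block changed no keratin call (KRT19 in filamentous minus small spherical 0.55, adjusted p = 0.157 by limma).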
